A study of Mus musculus with 4 samples.

Results

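Macrophages of the testis were followed through 10 named genes, LYZ2, C1QA, C1QB, C1QC, CD74, H2-AA, H2-AB1, H2-EB1, CSF1R and ADGRE1, taken by symbol from the 25824 gene symbols in the count tables of 4 mice. The tables came from droplet single-cell RNA sequencing of dissociated testes, and the study asked how loss of CTCF, a DNA-binding protein that shapes chromosome folding, affects sperm development. The wild type group (WT, n = 2 mice, replicates 1 and 2) carried Ctcf wt/wt by its source label, although the study describes its controls as littermates that could also be Ctcf f/f or wt/f. The knockout group (Ctcf-cKO, n = 2 mice, replicates 1 and 3) carried Stra8-iCre with 1 floxed and 1 deleted Ctcf allele (f/Δ), and both groups were 15 weeks old on a background spelled C56BL/6J. Stra8-iCre is active in germ cells, so macrophages are not among the cells it targets. The deleted allele is given as part of the genotype of the mouse, however, and the Ctcf alleles of the macrophages were not tested. Filtrates of 2 tubes were pooled for the Ctcf-cKO suspension, a wash step was meant to remove red blood cells, and each library is 1 mouse.

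Resident macrophages of the testis lie either in the interstitium beside the testosterone-making Leydig cells or flattened on the wall of the seminiferous tubules. The interstitial population is known for abundant CSF1 receptor and little MHC class II, and the peritubular population for the opposite. Macrophages secrete C1q, the first component of the classical complement pathway, whose 3 chains are encoded by C1QA, C1QB and C1QC, and lysozyme (LYZ2), which digests bacterial walls. They present peptides on MHC class II molecules, built here from the I-A chains H2-AA and H2-AB1 and the I-E beta chain H2-EB1, which fold on the invariant chain CD74. CSF1R receives the growth factor that keeps macrophages alive, and ADGRE1 is the F4/80 surface antigen.

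In the GRCm38 annotation, the 3 C1q genes stand side by side on the minus strand of chromosome 4, C1qb at chr4:136880129-136886187, C1qc at chr4:136889804-136893065 and C1qa at chr4:136895917-136898803. The class II genes lie on chromosome 17, H2-Ab1 at chr17:34257689-34269419 on the plus strand, H2-Aa at chr17:34282744-34287823 on the minus strand and H2-Eb1 at chr17:34305867-34316674 on the plus strand, with Adgre1 at chr17:57358691-57483527 on the plus strand of the same chromosome. Lyz2 lies at chr10:117277331-117282321 on the minus strand, next to its close paralog Lyz1 at chr10:117287797-117292868, with which reads could be shared. LYZ1 itself held 3 and 0 counts in WT testes against 0 and 1 in Ctcf-cKO testes (here and below, WT replicates in the order 1, 2, then knockout replicates in the order 1, 3), so few counts were assigned to it.

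Of the 10 members, 5 had a promoter in the RefSeq table of GRCm38.p6, and these are shown because they cover lysozyme and complement (LYZ2, C1QB and C1QC) as well as class II (H2-AA and H2-EB1). Each is printed 5′ to 3′ on the strand of its gene, and the capitals mark ACTTCCT, which holds the core recognised by ETS family factors such as the macrophage regulator SPI1, or CTGATTGG, which holds the CCAAT box element (Y box) known from class II promoters. Both motifs were picked after the sequences had been seen. LYZ2 is at chr10:117282322-117282522 on the minus strand, C1QB at chr4:136886211-136886450 on the minus strand, C1QC at chr4:136893066-136893164 on the minus strand, H2-AA at chr17:34287834-34288073 on the minus strand and H2-EB1 at chr17:34305617-34305856 on the plus strand, where an exon of the antisense gene Gm20513 overlaps it. The LYZ2 and C1QC windows were ended where an annotated exon of the gene itself begins.
LYZ2: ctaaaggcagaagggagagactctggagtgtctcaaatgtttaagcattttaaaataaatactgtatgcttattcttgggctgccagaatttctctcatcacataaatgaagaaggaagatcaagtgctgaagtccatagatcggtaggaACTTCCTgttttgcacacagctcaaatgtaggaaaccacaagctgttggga
C1QB: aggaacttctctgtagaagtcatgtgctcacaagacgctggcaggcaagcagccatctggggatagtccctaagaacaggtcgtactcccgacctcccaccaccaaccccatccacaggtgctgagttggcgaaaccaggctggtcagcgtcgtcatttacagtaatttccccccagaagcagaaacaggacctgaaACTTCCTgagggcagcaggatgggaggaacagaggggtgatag
C1QC: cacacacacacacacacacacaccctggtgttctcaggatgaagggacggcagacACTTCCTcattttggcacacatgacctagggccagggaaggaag
H2-AA: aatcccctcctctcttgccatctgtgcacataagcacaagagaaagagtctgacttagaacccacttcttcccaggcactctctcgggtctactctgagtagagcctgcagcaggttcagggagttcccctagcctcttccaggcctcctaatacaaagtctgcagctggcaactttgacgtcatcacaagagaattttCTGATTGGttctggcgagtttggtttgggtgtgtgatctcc
H2-EB1: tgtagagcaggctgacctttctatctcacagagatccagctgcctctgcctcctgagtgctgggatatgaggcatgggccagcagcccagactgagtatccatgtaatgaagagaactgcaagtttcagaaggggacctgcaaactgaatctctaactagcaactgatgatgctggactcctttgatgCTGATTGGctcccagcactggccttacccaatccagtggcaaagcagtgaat

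Counting the base before the RefSeq start as -1, ACTTCCT began at -100 in LYZ2, -53 in C1QB and -195 in C1QC. CTGATTGG began at -51 in H2-AA and -62 in H2-EB1. In LYZ2 and C1QC the RefSeq start lies inside the annotated gene, so ACTTCCT is closer to the annotated gene than these positions say. On either strand, ACTTCCT or its reverse complement AGGAAGT occurred in 7.32% of all 32851 promoter windows of 240 bases, and CTGATTGG or CCAATCAG in 3.71%. The matches describe these letters only.

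The libraries differed in depth, with 6701235 and 4859455 counts in WT testes and 2652665 and 1593546 in Ctcf-cKO testes. Cells were taken as barcodes with 200 to 7000 genes, at most 10% mitochondrial counts and at least 3 times the plateau of empty droplets in their library, which left 926 of 24403 barcodes, 115 and 274 in WT testes and 256 and 281 in Ctcf-cKO testes. Median counts per cell were 12999 and 7377 in WT testes, deeper than the 4280.5 and 2078 in Ctcf-cKO testes. CTCF itself held 16.4 and 10.1 counts per 1000000 counts (CPM) in WT testes and 1.51 and 4.39 in Ctcf-cKO testes, lower in both of the latter. Between 723 and 1310 barcode strings occurred in both libraries of a pair, and 5 of the 58 member-rich cells described below had their string in another library, with 0 member counts there. In every table the value 4 was far more frequent than 5 (11.5% to 30.0% of values against 2.81% to 3.54%), so a count may not be 1 molecule, and the counting intervals and floors given here cover counting error only and are too narrow.

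All 10 macrophage genes stood higher in both Ctcf-cKO mice than in both WT mice, where 22.6% of the 25824 genes did so. Summed over the members, the level over all barcodes was 35.4 and 197 CPM in WT testes and 1207 and 1260 CPM in Ctcf-cKO testes, a 10.6-fold difference of the means (116 ± 115 against 1234 ± 37.2, SD, n = 2 mice each). In such sums, more macrophages among the cells and more RNA in each macrophage cannot be told apart. In the edgeR quasi-likelihood test over all 14552 genes passing the filter on low counts, 9 of the 10 members were higher in Ctcf-cKO at an adjusted p under 0.05, against 18.4% of all genes tested, and their median log2 fold change was 3.18 beside -0.04 for all genes.

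**Figure D1:**
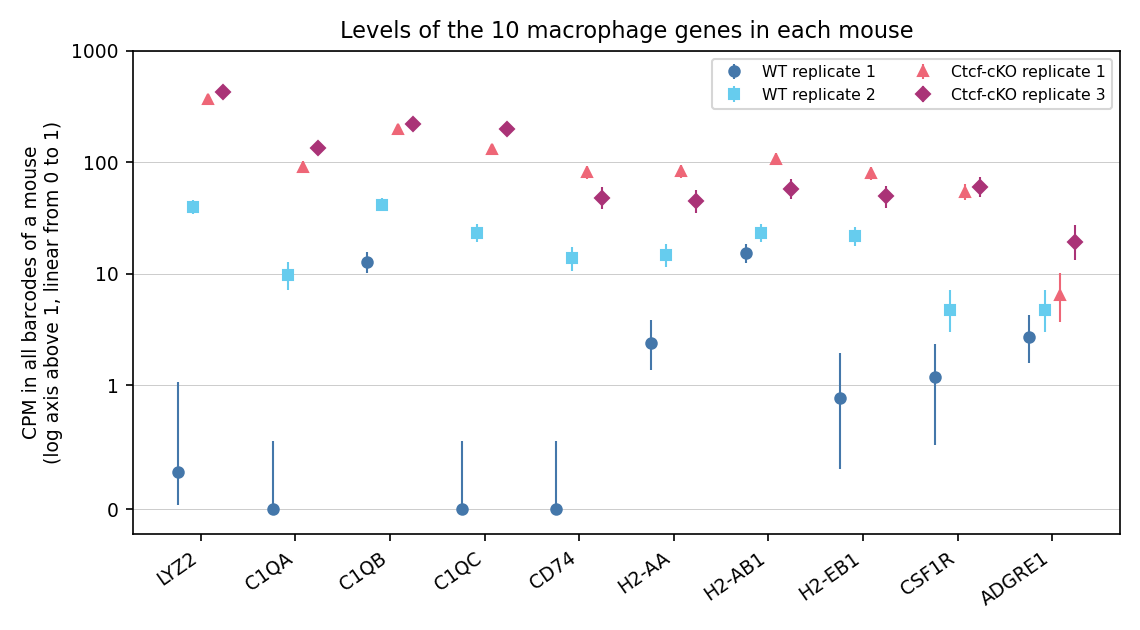
CPM of each macrophage gene over all barcodes (log axis above 1) in the 4 mice, with exact 95% Poisson intervals that cover counting error only. Both Ctcf-cKO mice lie above both WT mice for every gene, from 1.35 times the higher WT mouse for ADGRE1 to 11.5 times for CSF1R.

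LYZ2, the lysozyme of macrophages and granulocytes, was the member with most counts in Ctcf-cKO testes. Its level was 0.298 CPM (2 counts) and 39.5 CPM in WT testes and 372 and 429 CPM in Ctcf-cKO testes. WT replicate 1 was close to 0 and the groups did not overlap. The log2 fold change was 4.42 (SE 0.93, edgeR adjusted p = 0.0046). Neutrophils also make lysozyme. Of 8 neutrophil genes listed only 2 had a row in the tables, and these summed to at most 0.298 CPM in WT testes and at most 2.51 CPM in Ctcf-cKO testes. Their part in the LYZ2 level was not tested.

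The 3 C1q chains rose together in Ctcf-cKO testes. C1QA was at 0 and 9.67 CPM in WT testes and at 91.2 and 134 CPM in Ctcf-cKO testes. C1QB was at 12.7 and 41.8 CPM against 199 and 220 CPM. C1QC was at 0 and 23.5 CPM against 133 and 198 CPM. The groups did not overlap for any chain, and within each group replicate 1 was the lower mouse. The log2 fold changes were 4.69 for C1QA (SE 0.86, edgeR adjusted p = 0.0020), 3.01 for C1QB (SE 0.43, adjusted p = 3.6e-04) and 3.92 for C1QC (SE 0.94, adjusted p = 0.0094). C1QA, C1QC and CD74 had no row in the table of WT replicate 1 and were taken as 0 there, which allows up to 0.448 CPM (3 counts).

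The class II genes and their chaperone rose too, with a different order of the Ctcf-cKO mice. CD74 was at 0 and 13.8 CPM in WT testes and at 81.4 and 48.3 CPM in Ctcf-cKO testes. H2-AA was at 2.39 and 14.6 CPM against 82.9 and 44.6 CPM. H2-AB1 was at 15.2 and 23.3 CPM against 107 and 57.7 CPM. For each of these genes, and for H2-EB1 below, Ctcf-cKO replicate 1 was the highest mouse, whereas replicate 3 was the highest for LYZ2 and the C1q chains. H2-EB1 was at 0.895 and 21.8 CPM against 79.5 and 49.6 CPM. The log2 fold changes were 3.36 for CD74 (SE 0.94, edgeR adjusted p = 0.020), 3.01 for H2-AA (SE 0.62, adjusted p = 0.0042), 2.18 for H2-AB1 (SE 0.36, adjusted p = 0.0012) and 2.60 for H2-EB1 (SE 0.82, adjusted p = 0.032).

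Of the receptors, CSF1R rose and ADGRE1 missed the threshold. CSF1R was at 1.19 and 4.73 CPM in WT testes and at 54.7 and 60.2 CPM in Ctcf-cKO testes, a log2 fold change of 4.39 (SE 0.53, edgeR adjusted p = 1.1e-04). ADGRE1 was at 2.69 and 4.73 CPM against 6.41 and 19.5 CPM, with a log2 fold change of 1.83 (SE 0.69, adjusted p = 0.068). F4/80 held 17 to 31 counts in a library, the fewest of the 10 members in each Ctcf-cKO mouse but not in WT replicate 1 (18 counts), and Ctcf-cKO replicate 1 lay near the higher WT mouse.

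With either Ctcf-cKO mouse left out, the number of members called fell from 9 to 6. C1QC, CD74 and H2-EB1 lost the call without replicate 1 and without replicate 3, H2-AA lost it without replicate 1 (adjusted p = 0.076), and ADGRE1 gained it without replicate 1 (adjusted p = 0.040). The DESeq2 Wald test on the same sums kept 3 of 10 calls, C1QB, H2-AB1 and CSF1R.

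Of the genes that work with the members, many but not all were higher in Ctcf-cKO over all barcodes, where 18.4% of all genes tested were. Of 32 other macrophage genes 28 were tested and 24 were higher in Ctcf-cKO by edgeR, among them MRC1, CD68, TYROBP and CTSS, while AIF1 (log2 fold change -0.16) and CD14 (-0.14) were below 0 and did not pass. Of 9 genes tested around the CSF1 receptor 8 were higher, including the growth factor CSF1 and the transcription factors SPI1 and IRF8. Of 12 further complement genes tested 9 were higher, with C4B at -0.27 and CD55, which protects cells from complement, at -0.54, neither past the threshold. Of 9 further class II pathway genes 4 were higher (CTSS, LGMN, IFI30 and CD86), and 3 lay below 0 without passing, the peptide loader H2-DMB1 (-0.20) and the class II promoter factors RFX5 (-0.12) and RFXANK (-0.61). The lysosome list was higher for 13 of 15 genes, including CTSB and CTSD, proteases of the lysosome.

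Markers of other somatic cells moved with the genotype as well. The summed Leydig cell list was at 181 to 468 CPM in WT testes and 4481 to 5061 CPM in Ctcf-cKO testes, and the Sertoli cell list at 157 to 347 against 2678 to 2858 CPM, with all 13 tested genes of each list called higher. The red blood cell list was at 18.7 to 199 CPM against 1404 to 2139 CPM, with 4 of 4 tested genes higher. Of 15 round spermatid genes 11 were lower, and of 15 spermatocyte genes 7 were lower, beside 10.1% of all genes tested. The elongating spermatid list did not fall with them, at 80080 to 112278 CPM in WT testes and 113216 to 116079 CPM in Ctcf-cKO testes. Of its 15 genes 13 had a log2 fold change above 0, with 1 called higher and 1 called lower. The lists of dendritic cells (19.7 to 25.1 against 24.5 to 36.2 CPM) and of B cells (14.4 to 24.9 against 23.4 to 25.7 CPM) overlapped between the groups over all barcodes. Those of monocytes (26.1 to 36.8 against 48.3 to 48.9 CPM) and of T and NK cells (63.3 to 67.3 against 67.5 to 102 CPM) did not. Endothelial (20.3 to 24.7 against 37.7 to 56.5 CPM) and fibroblast and peritubular lists (249 to 294 against 1140 to 1688 CPM) did not either. Of their tested genes 0 of 3, 1 of 5, 1 of 4 and 7 of 8 were called higher, beside 18.4% of all genes. The T and NK cell list overlapped in cells (66.8 to 72.0 against 68.4 to 89.4 CPM). In cells the B cell list did not overlap, at 8.45 to 10.02 CPM in WT testes and 26.3 to 35.8 CPM in Ctcf-cKO testes. Over all barcodes IGHM, the heavy chain of IgM, had 0 and 1 counts in WT testes and 45 and 19 in Ctcf-cKO testes and was called higher (edgeR adjusted p = 4.1e-04), whereas the B cell factor PAX5, with 158 and 68 counts against 17 and 21, was not (log2 fold change -0.92, adjusted p = 0.19). The part of these shifts in the level of the macrophage genes was not tested.

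To find the barcodes that hold the genes, a cell was called member-rich when it had counts of at least 3 of the 10 members and a member share at least 5 times that of the barcodes under 200 genes of its library. This gave 58 cells, 1 of 115 and 5 of 274 in WT testes and 15 of 256 and 37 of 281 in Ctcf-cKO testes. The shares were 0.870% (95% Clopper-Pearson interval 0.0220 to 4.75) and 1.82% (0.595 to 4.21) in WT testes, and 5.86% (3.32 to 9.48) and 13.2% (9.44 to 17.7) in Ctcf-cKO testes. Both Ctcf-cKO mice lay above both WT mice, and the means differed by 8.17 percentage points (1.35 ± 0.675 against 9.51 ± 5.17, SD, n = 2 mice each). The two-sided exact permutation p was 0.33, the smallest that 2 against 2 mice can give. The limit that a cell had to pass differed with the free RNA of its library, from a member share of 0.00953% in WT replicate 1 to 0.367% in Ctcf-cKO replicate 1. With 5 members required in place of 3, the shares were 0%, 1.46%, 4.69% and 3.91% in the order used above and the difference was 3.57 points. Of the 37 cells of Ctcf-cKO replicate 3, 14 held exactly 3 members and 12 exactly 4, which left 11. The 0 of 115 cells allows a share of up to 2.61% by a floor of 3 cells and of up to 3.16% by the Clopper-Pearson interval. With every cell thinned to 900 counts, for which 250 of the 281 cells of Ctcf-cKO replicate 3 and all other cells were deep enough, the shares were 0%, 1.09%, 4.30% and 9.20%.

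Member-rich cells held only some of each gene's counts, and how much depended on the mouse. They carried 3.80% and 34.5% of all member counts in WT testes and 54.0% and 59.9% in Ctcf-cKO testes. Other cells carried 33.3% and 30.6% against 19.9% and 18.1%. Barcodes under 200 genes, which mostly hold free RNA, carried 0.844% and 10.1% against 24.8% and 22.0%. The rest of the WT counts lay in barcodes with 200 or more genes that did not pass as cells, 62.0% and 24.8% of them. These barcodes were rare in the Ctcf-cKO libraries, where they held 1.37% and 0%. The plateau of empty droplets lay at 1148 and 541 counts in WT libraries and at 309 and 213 in Ctcf-cKO libraries. Barcodes with 200 to 7000 genes numbered 4234 and 2079 against 327 and 293. The limit of 200 genes thus does not take the same kind of droplet in both genotypes, and the shares on either side of it are not comparable between them.

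**Figure D2:**
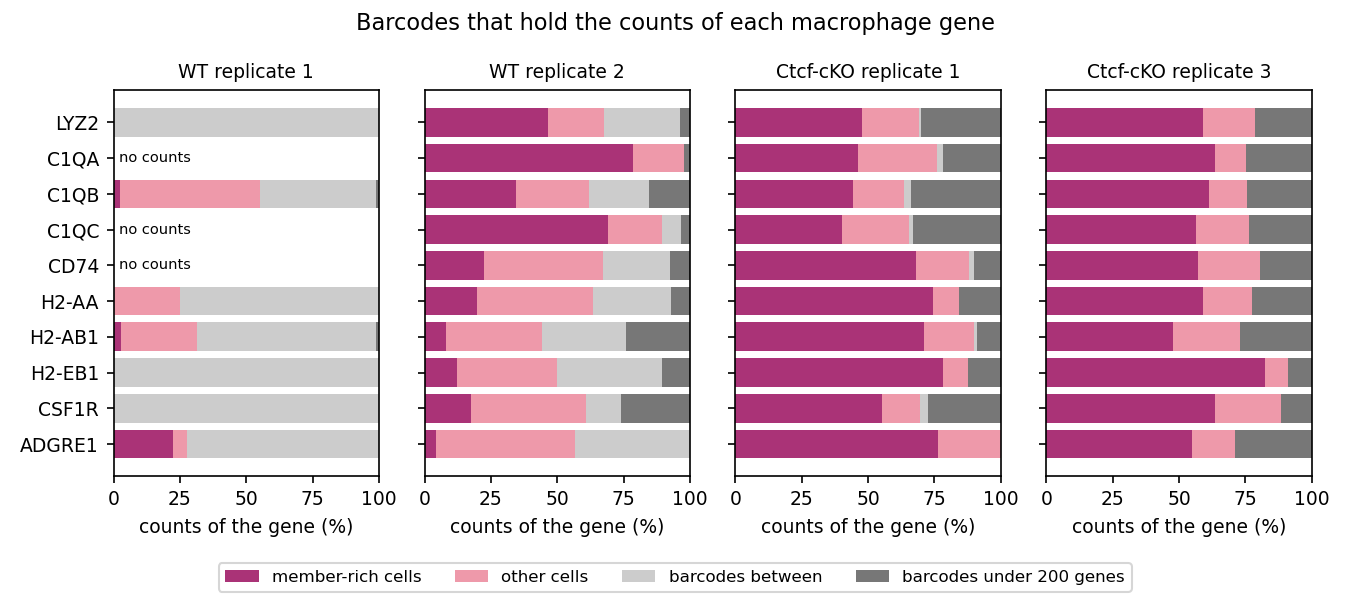
Share (%) of each macrophage gene's counts found in member-rich cells, other cells, barcodes with 200 or more genes that did not pass as cells (barcodes between) and barcodes under 200 genes, with 1 panel per mouse. Member-rich cells hold 54.0% and 59.9% of member counts in Ctcf-cKO testes, and nearly none in WT replicate 1.

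In both WT mice most barcodes with a C1QB or H2-AB1 count held no other member. In WT replicate 1 the 85 C1QB counts lay in 36 barcodes, 27 of which held no other member, with at most 7 in a barcode. The 102 H2-AB1 counts there lay in 55 barcodes, 45 of them with no other member, with at most 4 in a barcode. The shares were 75.0% for C1QB and 81.8% for H2-AB1 in WT replicate 1, and 74.6% and 86.0% in WT replicate 2. In Ctcf-cKO replicate 1 they were 61.3% and 40.0%, and in Ctcf-cKO replicate 3 46.6% and 61.1%. In WT replicate 1 C1QB made up 100% of C1q counts and H2-AB1 82.3% of class II counts. In the member-rich cells of WT replicate 2, Ctcf-cKO replicate 1 and Ctcf-cKO replicate 3, C1QB was 37.6%, 48.0% and 40.5% of C1q counts, with C1QA at 19.9%, 23.0% and 25.8%. WT replicate 1 thus had no count of C1QA or C1QC beside C1QB, and its only member-rich cell held 2 C1QB, 3 H2-AB1 and 4 ADGRE1 counts and no LYZ2. That cell took 31.1% of its 6877 counts from elongating spermatid genes.

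WT replicate 2 drew much of its macrophage signal from 1 barcode. This barcode, of 13662 counts, held 233 of its 959 member counts (24.3%), including 72 of 192 LYZ2, 27 of 47 C1QA, 45 of 203 C1QB and 52 of 114 C1QC counts. In Ctcf-cKO replicate 1 the richest barcode held 8.46% of member counts and in replicate 3 the richest held 10.7%. With the richest barcode of each library left out, 8 of 10 members kept the edgeR call over all barcodes, H2-EB1 being the call lost (log2 fold change 2.21, adjusted p = 0.11).

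Restricted to cells, 9 of 10 members were again higher in Ctcf-cKO by edgeR, against 16.0% of the 11698 genes tested (3.38% of which were lower). Their median log2 fold change was 3.34, from 2.18 for ADGRE1 (adjusted p = 0.069, the gene not called) to 4.76 for CSF1R (adjusted p = 2.6e-04), beside -0.02 for all genes. Without Ctcf-cKO replicate 1 the calls fell to C1QB and CSF1R, and without replicate 3 to C1QB and H2-AB1. When 20% of each sum was taken as free RNA and subtracted, 3 calls were left.

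With the member-rich cells taken out, 5 of the 9 members tested were still higher, against 14.0% of all genes tested (2.19% were lower). LYZ2 (log2 fold change 4.26, edgeR adjusted p = 5.9e-04), C1QA (4.41, adjusted p = 0.0016), C1QB (1.59, adjusted p = 0.013), C1QC (3.91, adjusted p = 0.0021) and CSF1R (3.42, adjusted p = 0.028) stayed higher in the remaining Ctcf-cKO cells. CD74 (2.16, adjusted p = 0.12), H2-AA (1.14, adjusted p = 0.37), H2-AB1 (1.10, adjusted p = 0.16) and H2-EB1 (0.59, adjusted p = 0.76) did not pass. The fold changes of those that passed and those that did not overlapped, CD74 lying above C1QB, and the difference between them was not tested. The cells taken out were chosen on the members, by a limit of 0.00953% and 0.0822% in WT and 0.367% and 0.295% in Ctcf-cKO libraries. Cells with at least 3 members but below the 5-fold limit numbered 0 and 2 against 11 and 2. Ctcf-cKO cells with a larger member share could thus remain, and the part of this rule in the remaining difference was not tested.

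In barcodes under 200 genes, which mostly hold free RNA, LYZ2 and the 3 C1q chains passed and no class II gene did. Here 4 of the 8 members tested were higher in Ctcf-cKO, against 5.84% of the 7879 genes tested. LYZ2 had 0 and 7 counts in WT testes and 297 and 147 in Ctcf-cKO testes, and passed with a log2 fold change of 4.78 (edgeR adjusted p = 3.9e-06). C1QA had 0 and 1 counts against 53 and 53. C1QC had 0 and 4 against 116 and 74. All 3 were nearly absent from WT droplets of this kind, so the size of their fitted fold change depends on the prior count. C1QB, with 1 and 31 counts against 178 and 85, had a log2 fold change of 1.97 (adjusted p = 0.016). H2-AB1 had 1 and 27 counts against 26 and 25, and its log2 fold change was -0.06 (adjusted p = 0.98). CD74 (1.79, adjusted p = 0.37), H2-AA (2.20, adjusted p = 0.20) and H2-EB1 (0.53, adjusted p = 0.85) did not pass, and CSF1R and ADGRE1 had too few counts to be tested. H2-AA lay above C1QB in fold change, and no difference between the members was tested. These WT libraries held 104983 and 590328 counts in such barcodes and the Ctcf-cKO libraries 1081040 and 748090. Since empty droplets were deeper in the WT libraries, barcodes under 200 genes are not the same kind of droplet in both genotypes. The part of this in the fold changes was not tested.

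Within cells the members overlapped in part. Among all 926 cells, 163 had a LYZ2 count, 152 C1QB, 93 C1QC, 78 C1QA, 73 H2-AB1, 47 CD74, 47 CSF1R, 41 H2-AA, 37 H2-EB1 and 18 ADGRE1. C1QA shared 50 cells with LYZ2, 64.1% of its own cells and 30.7% of those of LYZ2. CSF1R shared 30 cells with LYZ2, 63.8% of its own cells. H2-AB1 shared 19 cells each with LYZ2 and C1QB, beside 14 with CD74 and 12 each with H2-AA and H2-EB1. LYZ2 and C1QB were counted in far more cells than these class II genes. H2-AB1 was found in 11.7% of the cells with LYZ2 and 12.5% of those with C1QB. It was found in 29.8% of the cells with CD74, 29.3% with H2-AA and 32.4% with H2-EB1. A count of any C1q chain was found in 227 cells (24.5% of all) and of any class II gene or CD74 in 152. Both occurred in 46, which is 20.3% of the former and 30.3% of the latter. These shares depend on depth, and cells with a single count of a member may hold free RNA.

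In the 58 member-rich cells C1q was common and class II less so. LYZ2 was found in 55 of them, all 3 C1q chains in 27 and all 4 class II genes in 9, while 37 held no class II count at all. Of the 21 with a class II count 19 also held C1q, and of the 16 with CD74 all 16 held LYZ2 and 14 held C1QB. In 55 cells more than 80% of the C1q and class II counts came from 1 side. Of the 58, 49 had more C1q than class II counts, 5 in WT replicate 2, 8 in Ctcf-cKO replicate 1 and 36 in Ctcf-cKO replicate 3. The other 9 had more class II counts, 1 in WT replicate 1, 7 in Ctcf-cKO replicate 1 and 1 in Ctcf-cKO replicate 3. The 2 knockout mice thus differed in how many of their member-rich cells were on the class II side, 7 of 15 against 1 of 37, a description of 2 libraries with no test.

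**Figure D3:**
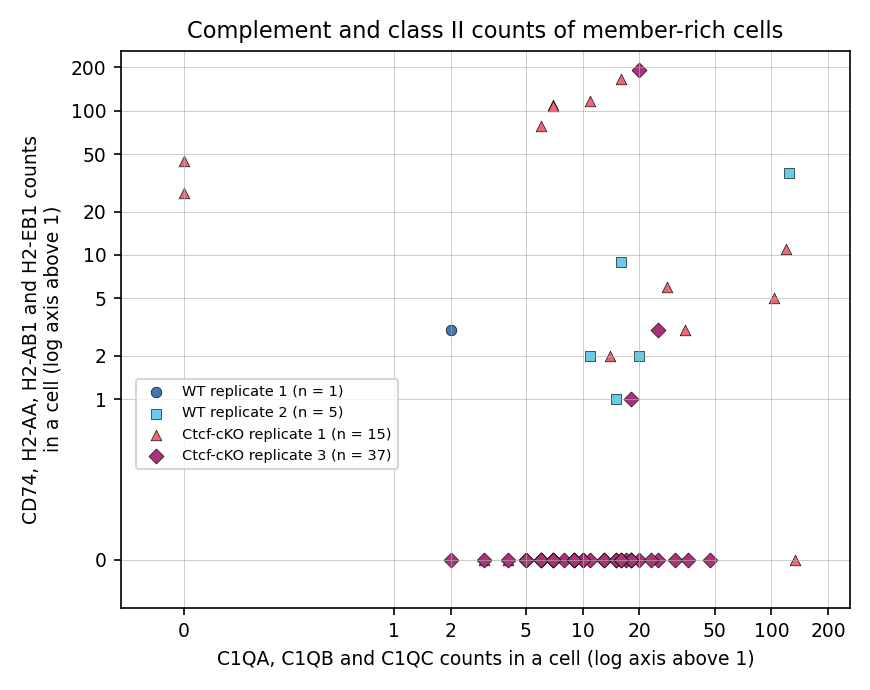
Summed C1q counts (x axis) and summed class II and CD74 counts (y axis) of each of the 58 member-rich cells, both on log axes above 1, coloured by mouse. The 36 C1q-side cells of Ctcf-cKO replicate 3 lie at 0 to 3 class II counts, and the 7 class II cells of Ctcf-cKO replicate 1 lie at 27 to 167 class II and 0 to 16 C1q counts.

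Ctcf-cKO replicate 1 allowed both kinds to be set side by side within 1 library. Its 7 class II cells (42906 counts in all) held 130 CD74, 158 H2-AA, 198 H2-AB1 and 165 H2-EB1 counts, each gene counted in all 7. Its 8 C1q-side cells (33576 counts) held 17, 6, 4 and 0 of the same genes. The 7 cells thus held nearly all of the class II counts of these 15 cells. The C1q side held 102 C1QA, 213 C1QB and 125 C1QC counts against 10, 21 and 16. It also held 353 LYZ2 counts against 118, and 73 CSF1R counts in 6 of 8 cells against 7 in 2 of 7. The sides were chosen on the C1q and class II counts, so those are a description, and cells of 1 mouse are not replicates.

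Genes that did not choose the sides also differed in their counts, but the contrast rested on 4 of the 8 C1q-side cells. These 4, with under 2% of their counts from elongating spermatid genes, held 2006 counts of other macrophage genes (252 to 719 a cell) and 68 of the 73 CSF1R counts. The other 4 held 161 (12 to 94 a cell), beside 488 (22 to 105 a cell) in the 7 class II cells. MRC1, the mannose receptor, had 53 counts in the first 4 cells, 0 in the other 4 and 0 on the class II side. STAB1, a scavenger receptor, had 63, 0 and 0, and the fractalkine receptor CX3CR1 22, 0 and 0. FCER1G, an Fc receptor chain, had 62, 4 and 0 counts, F13A1 54, 0 and 3, and PF4 39, 8 and 9. APOE, the lipid carrier, was present in all 3 sets with 1125, 111 and 339 counts. The split of the C1q side by spermatid RNA was made after the values had been seen. On the class II side, H2-DMA, which loads peptides onto class II, held 19 counts against 3. XCR1, a receptor of cross-presenting dendritic cells, held 17 counts in 3 cells against 0. ZBTB46, a factor of classical dendritic cells, held 5 counts in 1 cell against 0. Counts of the dendritic list occurred in 5 of the 7 class II cells (23 counts) and in 0 of the 8 C1q-side cells, while FLT3, ITGAX, BATF3, CLEC10A and CCR7 were at 0 in both. Of the B cell list, 12 counts lay on the C1q side, all of IGHM, and 9 on the class II side, 7 of IGHM and 2 of PAX5, in 2 of 8 and 3 of 7 cells. Whether the class II cells are macrophages or dendritic cells was not tested.

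Ctcf-cKO replicate 3 held the C1q side nearly alone. Its 36 cells carried 129 C1QA, 211 C1QB, 168 C1QC and 398 LYZ2 counts beside 1 CD74, 0 H2-AA, 0 H2-AB1 and 3 H2-EB1 counts. MRC1 had 55 counts in 14 of them and CSF1R 61 counts in 18. The remaining cell, of 4260 counts, held 43 CD74, 42 H2-AA, 44 H2-AB1 and 62 H2-EB1 counts, out of 77, 71, 92 and 79 in the whole library. The class II level of this mouse thus rested largely on 1 barcode. In WT replicate 2 the 5 cells were all on the C1q side and 1 of them held all 4 class II genes. Their 22 dendritic-list counts, in 2 of the 5 cells, were all of CLEC10A, a lectin of some macrophages and dendritic cells.

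The label of the genes was checked against cells grouped without them. Clustering on the other genes gave a cluster of 52 cells (0 and 3 from the WT mice, 12 and 37 from the Ctcf-cKO mice) led by CTSS, LAPTM5, CFP, STAB1, PF4, CTSC, F13A1, MAN2B1, CD68 and FCGR3, with 22 of the listed other macrophage genes at a higher level there, which is a description since the cells were clustered on these genes. This macrophage-like cluster held 43 of the 58 member-rich cells (74.1%), and 43 of its 52 cells were member-rich. With every cell thinned to 900 counts, a LYZ2 count was found in 85.7% of 49 macrophage-like cells, in 1.53% of 262 germ-like cells and in 8.90% of the 584 other cells. These other cells may include germ cells outside the germ-like clusters. C1QA was found in 42.9%, 0.382% and 2.74%. H2-AB1 was found in 14.3%, 1.53% and 2.74%. ADGRE1 was found in 8.16% of the macrophage-like cells. The shares of macrophage-like cells are weighted to Ctcf-cKO replicate 3, which gave 37 of the 52 cells. Unthinned, any class II count was found in 4 of these 37, but in 10 of the 12 cells from Ctcf-cKO replicate 1 and in all 3 from WT replicate 2, and LYZ2 in 34, 11 and 3. Unthinned, at median depths of 3250 counts in macrophage-like and 11360 in germ-like cells, C1QB was found in 82.7% and 13.9% and H2-AB1 in 19.2% and 10.5%. Counts of C1QB and H2-AB1 were thus found in germ-like cells too, so either by itself did not mark a macrophage. Germ-like cells held C1QB at 20.9 CPM beside C1QA at 1.51 and C1QC at 4.78 CPM. The macrophage-like cluster held them at 2390, 1346 and 1796 CPM. Where the counts in germ-like cells came from was not tested.

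**Figure D4:**
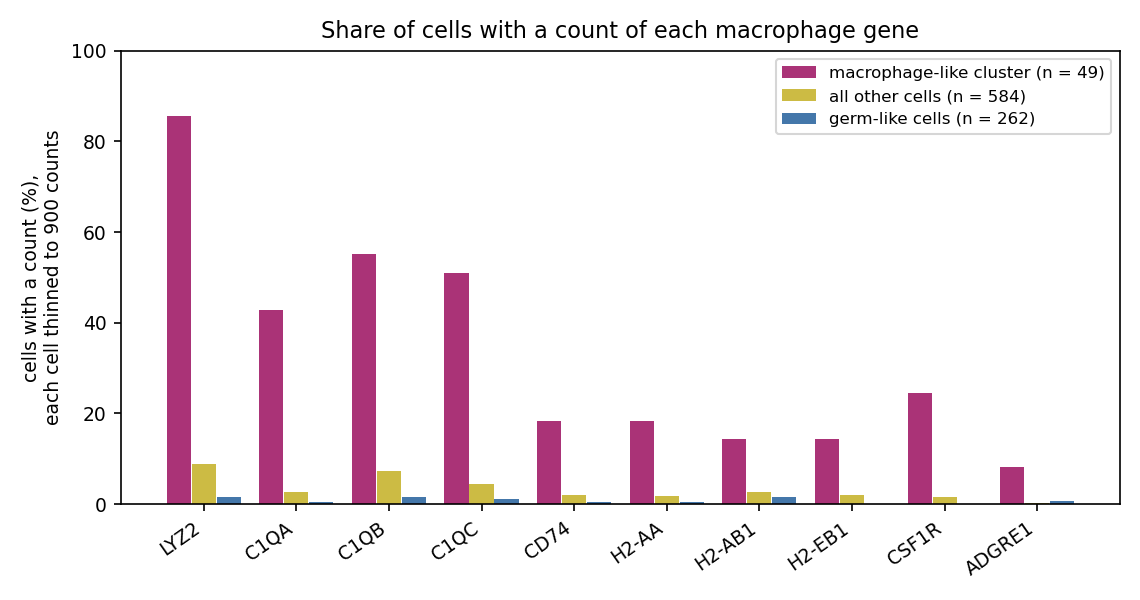
Share of cells (%) with a count of each macrophage gene after thinning every cell to 900 counts, in the macrophage-like cluster (49 cells), germ-like cells (262) and all other cells (584). LYZ2 reaches 85.7% in the macrophage-like cluster, the class II genes 14.3% to 18.4%, with 37 of the 52 cells of the unthinned cluster from Ctcf-cKO replicate 3.

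Other genes were then compared between member-rich cells and the other cells of the same mouse in WT replicate 2 and both Ctcf-cKO mice, the mice with at least 3 such cells, by edgeR with the mouse as a block. Of 7598 genes tested, excluding the members, 116 (1.53%) were higher and 104 (1.37%) lower. Of the other macrophage list 23 of 27 tested genes were higher, with a median log2 fold change of 4.59 beside -0.53 for all genes. CTSS, the cathepsin that trims the invariant chain, was at 472, 1177 and 391 CPM in member-rich cells of WT replicate 2, Ctcf-cKO replicate 1 and Ctcf-cKO replicate 3, and at 0.758, 18.0 and 10.9 CPM in the other cells (log2 fold change 6.19, SE 0.51, adjusted p = 5.8e-30). MRC1 was at 72.6, 693 and 538 CPM against 1.52, 16.6 and 39.4 CPM (4.48, SE 0.58, adjusted p = 3.3e-12). APOE was at 4339, 20593 and 12325 CPM against 94.0, 2435 and 2393 CPM (3.33, SE 0.31, adjusted p = 3.0e-23). Every mouse showed the same direction for these genes. AIF1 was the only one of the 27 with a value below 0, at 926, 654 and 548 CPM against 823, 584 and 713 CPM (-0.27, adjusted p = 0.81), so the other cells held it too.

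The partners of the members followed in part. Around the CSF1 receptor 5 of 7 tested genes were higher, among them SPI1 (log2 fold change 4.14), MAF (2.98), IRF8 (2.86) and CEBPB (2.84), all transcription factors of the myeloid lineage. Of 9 other complement genes tested, CFP, which stabilises the alternative pathway convertase (4.71), and ITGB2, a chain of complement receptors (5.11), were higher. Of 7 class II pathway genes CTSS and LGMN, both proteases of the endosome, were higher. Of 15 lysosomal genes 8 were higher, with GRN at 3.68 and CTSD at 2.65. Outside every list, the genes with the largest increase included CCL6, a chemokine (7.76, adjusted p = 4.7e-06), HCLS1, a haematopoietic signalling adaptor (8.29, adjusted p = 0.0034), and ADGRE5, a relative of F4/80 (6.16, adjusted p = 1.6e-06). HCLS1 had 12, 2 and 8 counts in member-rich cells and 1, 0 and 0 in the others, so its fitted size rests on few counts.

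**Figure D5:**
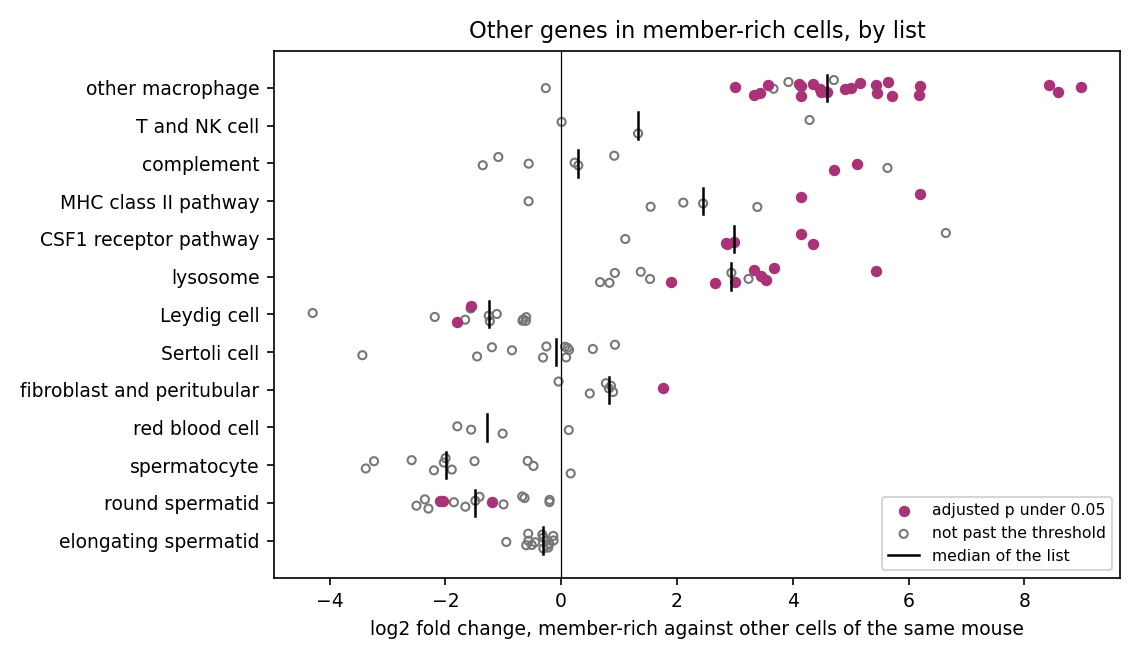
Log2 fold change of listed genes between member-rich cells and other cells of the same mouse, 1 point per gene, with filled points past an adjusted p of 0.05 and a bar at the median of each list with at least 3 genes tested. The other macrophage list has its median at 4.59 and the elongating spermatid list at -0.31, beside -0.53 for all genes tested.

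Member-rich cells also held RNA of germ cells. Elongating spermatid genes took a median of 11.0% of their counts, beside 11.1% to 15.2% of the counts of other cells and 6.65% to 12.1% in barcodes under 200 genes. In 8 cells, 4 from each Ctcf-cKO mouse, this share was under 3% (0.267% to 1.97%), and there the members took a median of 4.28% of counts and the other macrophage genes 9.66%. In the other 50 cells the medians were 0.876% and 1.45%. The 8 cells were chosen after the values had been seen, with 4 per mouse, and no gene passed as higher by edgeR (653 genes had an unadjusted p under 0.05). The median log2 fold change of that fit was -7.39 over all 5776 genes tested, beside -0.53 with all member-rich cells, and 16 genes passed as lower. With the whole fit offset in this way, it cannot show which genes were higher in the 8 cells. With all member-rich cells, the number of genes called higher was 63 without WT replicate 2, 60 without Ctcf-cKO replicate 1, 40 without Ctcf-cKO replicate 3, and 221 by DESeq2. Under RLE size factors the split moved to 143 higher and 33 lower, with a shift of the median by 0.27 on the log2 scale.

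The non-member genes whose counts per cell most resembled the summed members, by the mean over the 4 libraries of Pearson's r across cells among 10041 genes, were CTSS (0.34), CBR2 (0.29), PF4 (0.28), FCER1G (0.27) and APOE (0.27), followed by LAPTM5, TYROBP, STAB1, CD68 and CORO1A at 0.25 to 0.27. For 7 of these 10 genes the cells of WT replicate 1 held no count, so r was undefined there and entered the mean as 0. Over the 3 libraries with a count the mean was 0.45 for CTSS, 0.39 for CBR2 and 0.37 for PF4. The cells of a library share its depth and free RNA, and these weak correlations are given as a description.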

How the data were processed

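Testes of 4 mice (2 WT, 2 Ctcf-cKO) were profiled by droplet single-cell RNA sequencing (ddSEQ, 3′ kit). The authors aligned reads to GRCm38 and deposited a table of raw counts per gene symbol and barcode for each mouse, before their own filtering, integration and removal of somatic clusters. The counting tool is not given in the sources used here, and the pile-up of values at 4 was not resolved. Genes without a row in a table were taken as 0.

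Counts were summed per mouse over all barcodes, cells or barcodes under 200 genes, since cells are not replicates. Sums were tested with edgeR 4.0.16 (R 4.3.3, limma 3.58.1; quasi-likelihood F test, TMM, filterByExpr), with Benjamini-Hochberg adjustment over all genes tested and a threshold of 0.05. P-values between genotypes set the difference against the spread between 2 mice per group, which edgeR estimates with information from all genes. Those of the member-rich comparison come from differences within WT replicate 2 and both Ctcf-cKO mice, with the mouse as a block. Standard errors are on the log2 scale. Tested on simulated data, the fit over all barcodes recovered 195 to 199 of 200 genes changed by 3 on the log2 scale and the fit over cells 185 to 190, whereas the member-rich comparison recovered 57 to 65. False calls reached 14, 8 and 2 in the same order. The simulation used the same dispersion for every gene and changed genes picked at random, so it does not give the recovery of the members themselves. Cells were clustered with scanpy 1.11.5 on 2000 variable genes without the members. Germ-like cells are 4 clusters in which 6 to 12 genes of the leading spermatocyte or spermatid list were higher. A cluster of 47 cells with only 2 round spermatid genes higher was counted with the other cells. So was a cluster of 158 cells in which no list had 2 or more genes higher, so the other cells may include germ cells. Scrublet marked 2 to 10 cells per library as doublets, none of them member-rich, and they were kept. Intervals used scipy 1.17.1.

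Named genes are the 10 members, genes of the fixed lists, up to 15 genes outside them with the largest increase in every mouse tested, and up to 10 genes most like the members. The members and lists were chosen with earlier results of these data known. Alternatives were DESeq2 1.42.0, other scalings, filters, cell limits and definitions of member-rich cells, and each mouse left out.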

Additional observations from a re-analysis of the deposited data

How the results depend on the processing

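Over all barcodes, 9 of 10 members were called; DESeq2 called 3, a filter of 10 counts in every sum left 4 of 4, and leaving out 1 mouse gave 6 to 9. In cells the 9 calls became 3 with DESeq2, 2 of 2 with that filter, 3 with free RNA subtracted, 5 of 9 without the member-rich cells (chosen after seeing the data) and 2 to 9 with 1 mouse left out. In barcodes under 200 genes the 4 calls became 3 to 4 with 1 mouse left out, and no member passed the filter of 10 counts, which tested 0. There, H2-AB1 changed sign, from -0.06 to 0.12 with DESeq2, and between -0.55 (WT replicate 1 left out) and 2.05 (WT replicate 2 left out) with 1 mouse fewer, while H2-EB1 at 0.53 lay between -0.26 and 6.51, the latter fitted against 0 WT counts with WT replicate 2 left out. With library totals as the only scaling, 79.4% of calls in these barcodes were higher in place of 90.9%.

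In member-rich cells, 116 genes higher became 221 (DESeq2), 35 (10 counts), 62 (10 times free RNA), 0 (cells under 3% spermatid counts, an alternative chosen after seeing the data) and 40 to 63 (1 mouse left out). The 104 lower became 12 (DESeq2), 33 (RLE size factors), 33 (library totals), 4 (10 counts), 52 (10 times free RNA), 16 (under 3% spermatid counts) and 3 to 20 (1 mouse left out). The fit of cells under 3% spermatid counts had a median log2 fold change of -7.39 over all genes, so its calls cannot be set beside the others. The difference in member-rich shares moved from 8.17 to 3.57 points with 5 members required, and lay between 4.51 and 11.8 with 1 mouse left out. The cause of these moves was not tested, apart from the fewer genes tested under the filter of 10 counts.

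No paired analysis was made, because the labels give no pairs of WT and Ctcf-cKO mice, and a shared replicate number is not a match. Depth limits the members with few counts in a library, such as ADGRE1 with 17 to 31.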
